A study of Mus musculus with 6 samples.

Results

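The genes described here are the co-activators YAP and TAZ, the TEAD transcription factors they bind, and a small set of their best-known target genes. They are Yap1, Wwtr1 (which encodes TAZ), Tead1, Tead2, Tead3, Tead4, Ccn1, Ccn2, Ankrd1 and Amotl2. All probe sets annotated to exactly 1 of these symbols were taken, which gave 19 probe sets for 10 genes, out of 34945 probe sets with 1 symbol and 18193 genes. The list was chosen by place in the pathway, but with the measured differences between the sorted fractions on these arrays, among them that of Ccn2, in view. The differences, standard errors and adjusted p-values below therefore describe where these genes stand in the fit of all genes, and they do not test the set.

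YAP and TAZ carry no DNA-binding domain and act in the nucleus through TEAD factors. The Hippo kinases phosphorylate both proteins and hold them outside the nucleus, so their activity is set largely after translation, and a transcript level does not show it. Ccn1 (also named Cyr61) and Ccn2 (also named Ctgf), Ankrd1 and Amotl2 are genes that YAP and TEAD are known to switch on in many cell types. YAP is widely described as low or absent in neuroendocrine small cell lung cancer cells and as present in other lung epithelium, fibroblasts and endothelium.

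RNA came from sorted cells of lung tumours in mice of mixed C57BL/6;129Sv/J background whose tumours lack Rb, p53 and p130, taken 6 to 7 months after Cre was delivered by adenovirus. All samples came from such mice and none was treated. Whether every sorted cell carried the deletions was not tested. Cells stained for CD24, CD44 and EpCAM were divided into a fraction called tumour-propagating cells (TPCs) and the non-TPCs, by gates not given in the sources used here, and mice 1127, 920 and 0107 each gave 1 array of each fraction. The 6 arrays, 3 per fraction, hold RMA signals on a log2 scale, and their number limits the precision. The comparison asks how the TPCs of a tumour differ from its other sorted cells. Each value of a gene below is the level of its brightest probe set unless another is named, each difference is TPC minus non-TPC on the log2 scale, and a gene passed when its limma p-value, adjusted over all genes, was under 0.05. Across all genes, 11 were lower and 0 higher in TPCs. At an unadjusted p under 0.05 limma had 792 lower and 386 higher genes, 4.35% and 2.12% of all. The counts of each list at that level below stand beside these shares.

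Promoter sequence was looked up because TEAD factors bind a short DNA motif. RefSeq windows of build GRCm38.p6 matched 7 of the 10 genes, all but Tead1, Tead4 and Ccn2. The 250 bases before each start were searched on both strands for the TEAD core CATTCC, which reads GGAATG on the other strand. The core was present in 12.6% of 32851 such windows of all genes, and in 8 of the 10 windows of the 7 genes, which belong to 6 of them. Both Wwtr1 windows overlap and hold the same match. Some of the genes were listed as known targets of YAP and TEAD, so nothing is read from this count. The stretches of both co-activators and of the 3 target genes are shown, with each core match in capitals, so that Yap1, Wwtr1 and Ccn1, whose fractions did not overlap, can be set beside Amotl2 and Ankrd1, whose fractions did. None of these 5 passed the test over all genes. They run 5′ to 3′ along the strand of the gene and end at the base before the start. Ccn1 lies on chr3:145649986-145650235 (minus strand), Amotl2 on chr9:102717554-102717803 (plus strand), Ankrd1 on chr19:36119845-36120094, Yap1 on chr9:8004597-8004846 and Wwtr1 on chr3:57575911-57576160 (all 3 minus strand).
Yap1: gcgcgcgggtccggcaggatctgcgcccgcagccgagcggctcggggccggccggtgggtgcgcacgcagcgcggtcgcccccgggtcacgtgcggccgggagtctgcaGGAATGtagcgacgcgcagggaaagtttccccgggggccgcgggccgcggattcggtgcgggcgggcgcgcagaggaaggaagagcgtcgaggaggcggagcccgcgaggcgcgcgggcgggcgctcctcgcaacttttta
Wwtr1: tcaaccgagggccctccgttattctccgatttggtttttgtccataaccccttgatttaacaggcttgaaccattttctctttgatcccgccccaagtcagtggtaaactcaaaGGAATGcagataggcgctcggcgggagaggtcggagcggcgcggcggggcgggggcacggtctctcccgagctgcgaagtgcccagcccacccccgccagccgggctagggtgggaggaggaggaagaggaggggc
Ccn1: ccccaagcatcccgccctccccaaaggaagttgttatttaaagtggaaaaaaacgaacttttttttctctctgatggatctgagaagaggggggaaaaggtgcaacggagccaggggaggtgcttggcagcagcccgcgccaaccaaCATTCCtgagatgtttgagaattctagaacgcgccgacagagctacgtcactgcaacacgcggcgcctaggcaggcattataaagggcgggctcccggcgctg
Amotl2: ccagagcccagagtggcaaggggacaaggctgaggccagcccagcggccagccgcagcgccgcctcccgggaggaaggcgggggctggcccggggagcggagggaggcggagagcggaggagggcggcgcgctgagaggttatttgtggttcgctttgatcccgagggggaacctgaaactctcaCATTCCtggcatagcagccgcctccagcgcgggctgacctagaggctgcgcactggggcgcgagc
Ankrd1: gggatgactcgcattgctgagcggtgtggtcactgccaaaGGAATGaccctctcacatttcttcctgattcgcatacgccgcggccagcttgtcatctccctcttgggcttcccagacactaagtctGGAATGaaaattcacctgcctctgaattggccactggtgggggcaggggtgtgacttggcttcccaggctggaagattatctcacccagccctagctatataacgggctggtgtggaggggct
Ankrd1 held 2 matches, the first bases of which lay 210 and 123 bases before the start, and the other stretches shown held 1 match each. The Ccn1 match began 103 bases before the start, that of Amotl2 65, that of Yap1 141 and that of Wwtr1 136. Measured from the second annotated start of Wwtr1, the same match began 170 bases before. Tead3, which has 3 annotated starts, had 1, 2 and 0 matches before them, and Tead2 had 0. The AP-1 site TGANTCA, in 6.75% of all windows, and the CArG box of serum response factor, in 1.47%, had no match in any window of the 7 genes. A match to these letters is a description of the sequence and does not show binding.

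The 10 genes split into 4 that were lower in the TPCs of every mouse, with mean differences below -1, and 6 whose mean differences were all smaller than 0.2. Of all genes, 2.74% had a mean difference of -1 or lower. The group of 4 holds both co-activators, Yap1 and Wwtr1, and both CCN genes, Ccn1 and Ccn2. The group of 6 holds the 4 TEAD genes, Ankrd1 and Amotl2. Ccn2 was the 1 member that passed the test over all genes, and it was lower in TPCs, beside 0.0605% of all genes that passed in that direction. None of the 10 was called higher, where 0% of all genes were, and at an unadjusted p under 0.05 limma had 4 lower and 0 higher, where all genes had 4.35% lower and 2.12% higher. The fractions did not overlap for the same 4 genes, all lower in TPCs, beside 5.91% of all genes, and 5 of the 10 were lower in TPCs of all 3 mice, beside 13.8% of all genes. The median difference of the 10 was -0.15, and that of all genes 0.04. Since the genes were chosen with this contrast known, nothing is read from these shares.

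**Figure D1:**
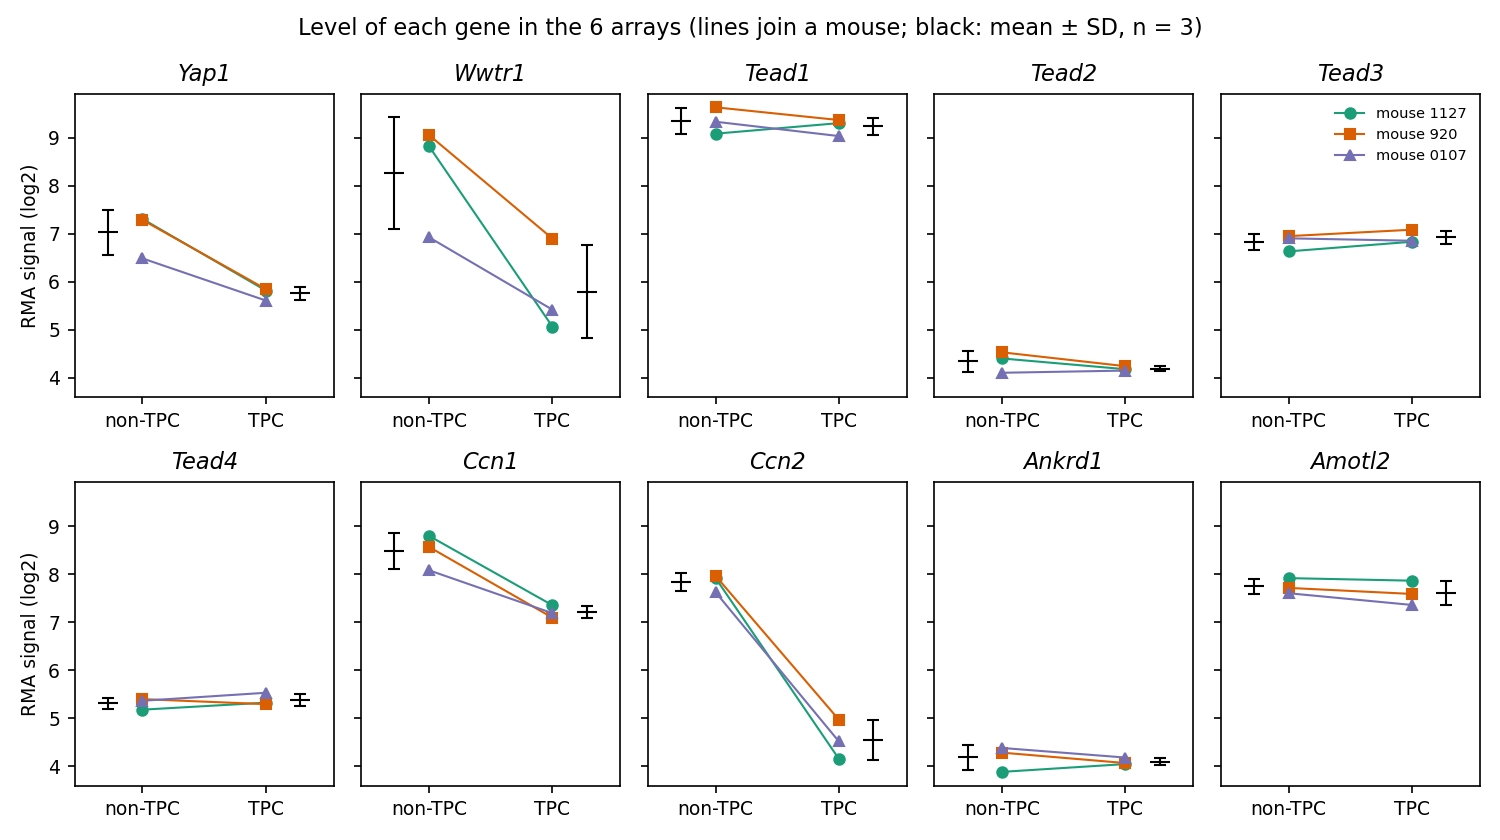
Level of each of the 10 genes (log2 RMA signal of the brightest probe set) in the non-TPC and TPC arrays, with a line and symbol per mouse and the mean ± SD of each fraction (n = 3) in black. Yap1, Wwtr1, Ccn1 and Ccn2 slope down in all 3 mice, while the TEAD genes, Ankrd1 and Amotl2 stay within 0.30 in every mouse.

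Ccn2 encodes a secreted matrix protein that binds integrins and growth factors and is the most used readout of YAP and TEAD activity. Its level in TPCs was 4.16, 4.97 and 4.52 in mice 1127, 920 and 0107, and in non-TPCs 7.92, 7.96 and 7.62. The 3 non-TPC arrays lay within a narrow band, and every TPC array was about 3 units or more below its partner. Ccn2 fell by 3.29 (SE 0.23, limma adjusted p = 0.0172), a 9.75-fold difference, and its differences within the mice were -3.76, -2.99 and -3.10. All 3 TPC levels were below the first quartile of gene levels, 5.21, so the size of the difference rests on dim signal in that fraction. With a replicate block for the mouse the adjusted p was 0.0286, and 1 of the 10 genes passed, beside 0.0715% of all genes called lower in that fit. The call was lost, with the difference still between -3.05 and -3.43, without mouse 1127 (adjusted p = 0.544), mouse 920 (0.0783) or mouse 0107 (0.0799). It was also lost when the TPCs of mouse 1127 (0.108), the TPCs of mouse 0107 (0.145) or the non-TPCs of mouse 1127 (0.113) were left out.

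Ccn1, the close relative of Ccn2, is a secreted protein that is also induced quickly by serum and stretch. It was at 7.35, 7.09 and 7.19 in TPCs of mice 1127, 920 and 0107 and at 8.80, 8.57 and 8.08 in their non-TPCs. The fractions did not overlap, and the mean difference was -1.27 (SE 0.21), with -1.44, -1.47 and -0.89 within the mice. It did not pass (adjusted p = 0.2). Leaving out the non-TPCs of mouse 0107, the lowest of that fraction, gave a difference of -1.47 and an adjusted p of 0.0327. In that fit 84 of all genes passed, against 11 with all arrays. It was the 1 of 17 alternatives in which Ccn1 passed. The limma adjusted p was 0.917 without mouse 920 and 0.107 without mouse 0107.

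Ccn1 has 4 probe sets, and they differed in size but not in direction. A pair that the annotation ties to the same sequence record differed by -2.21 and -2.16, more than the brightest one, and the dimmest differed by -0.70. In that pair the TPC levels were 5.70, 6.41 and 6.51 for one and 5.85, 6.26 and 6.72 for the other, in mice 1127, 920 and 0107. Their non-TPC levels were 8.50, 8.54 and 8.22 for the first, and 8.56, 8.46 and 8.27 for the second. In a fit with every probe set as its own row, in which 0.0244% of 45037 probe sets passed, all lower in TPCs, both had a limma adjusted p of 0.0929 and neither passed. The brightest Ccn1 probe set and 1 of the pair carry the suffix that Affymetrix gives to probe sets whose probes may also match other transcripts.

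Yap1 encodes the co-activator YAP. Its level was 5.82, 5.85 and 5.61 in TPCs of mice 1127, 920 and 0107, and 7.31, 7.29 and 6.49 in non-TPCs. The TPC arrays were close to each other, and the non-TPC array of mouse 0107 was nearer to them than those of the other mice. The mean difference was -1.27 (SE 0.25, limma adjusted p = 0.275), a 2.41-fold difference that did not pass. Leaving that array out gave -1.54 and an adjusted p of 0.0269, in a fit where 84 of all genes passed, against 11 with all arrays. Of 16 alternatives for Yap1 it was the 1 that passed. The limma adjusted p was 0.971 without mouse 920 and 0.0817 without mouse 0107. A second Yap1 probe set, with a mean level of 5.31, differed by 0.13 and by 0.39, 0.06 and -0.06 in the mice, so the difference was seen in 1 of the 2 Yap1 probe sets. The mean of both probe sets differed by -0.57.

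Wwtr1 encodes TAZ, the paralogue of YAP. It was at 5.07, 6.90 and 5.42 in TPCs of mice 1127, 920 and 0107 and at 8.82, 9.05 and 6.93 in their non-TPCs. The highest TPC level, in mouse 920, was only just below the lowest non-TPC level, in mouse 0107. The TPC level of mouse 1127 was below the first quartile of gene levels, 5.21. The mean difference was -2.47 with an SE of 0.69 (adjusted p = 0.553), which did not pass, and within the mice Wwtr1 differed by -3.75, -2.15 and -1.50. The dimmer 2 probe sets of Wwtr1 differed by -0.58 and -0.69, each lower in TPCs of all 3 mice and with the most negative value in mouse 920 (-1.01 and -1.28). The mean over the 3 probe sets differed by -1.24.

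The TEAD genes encode the DNA-binding partners of YAP and TAZ, and none of the 4 differed beyond the spread between mice. Tead1 was at 9.30, 9.36 and 9.03 in TPCs of mice 1127, 920 and 0107 and at 9.08, 9.63 and 9.33 in non-TPCs. It was above the third quartile of gene levels, 8.61, in all 6 arrays, and its fractions overlapped (difference -0.11, SE 0.18, adjusted p = 0.939). Tead3 stood at 6.83, 7.08 and 6.85 in TPCs and at 6.63, 6.95 and 6.90 in non-TPCs of the same mice, near the median gene level of 6.91 (difference 0.09, adjusted p = 0.939).

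Tead4 was between 5.30 and 5.53 in TPCs and between 5.18 and 5.40 in non-TPCs, with a difference of 0.07 (adjusted p = 0.947). Tead2, known from early embryos and neural progenitors, was between 4.15 and 4.24 in TPCs and between 4.11 and 4.53 in non-TPCs, with a difference of -0.16 (adjusted p = 0.909). Tead2 was dim in every array, below the first quartile. The sign of the small TEAD differences was not stable: those of Tead1, Tead3 and Tead4 changed when single arrays were left out, and the dimmer probe sets of Tead1 and Tead4 differed by -0.04 and 0.02.

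Ankrd1 and Amotl2 did not share the pattern of the CCN genes. Amotl2 encodes an angiomotin-like protein that binds YAP at cell junctions and is itself a YAP target. Its level was 7.86, 7.59 and 7.36 in TPCs of mice 1127, 920 and 0107 and 7.92, 7.71 and 7.60 in non-TPCs. Each TPC array was slightly below its partner, by 0.05, 0.13 and 0.24, but mice differed by more than fractions and the groups overlapped (difference -0.14, SE 0.17, limma adjusted p = 0.923). Ankrd1, a stretch-responsive gene best known from heart muscle, was between 4.05 and 4.19 in TPCs and between 3.89 and 4.38 in non-TPCs (difference -0.08, adjusted p = 0.947). It was below the first quartile in all 6 arrays, and its second probe set, between 3.44 and 3.78, differed by 0.15, so no difference was detectable at this signal.

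**Figure D2:**
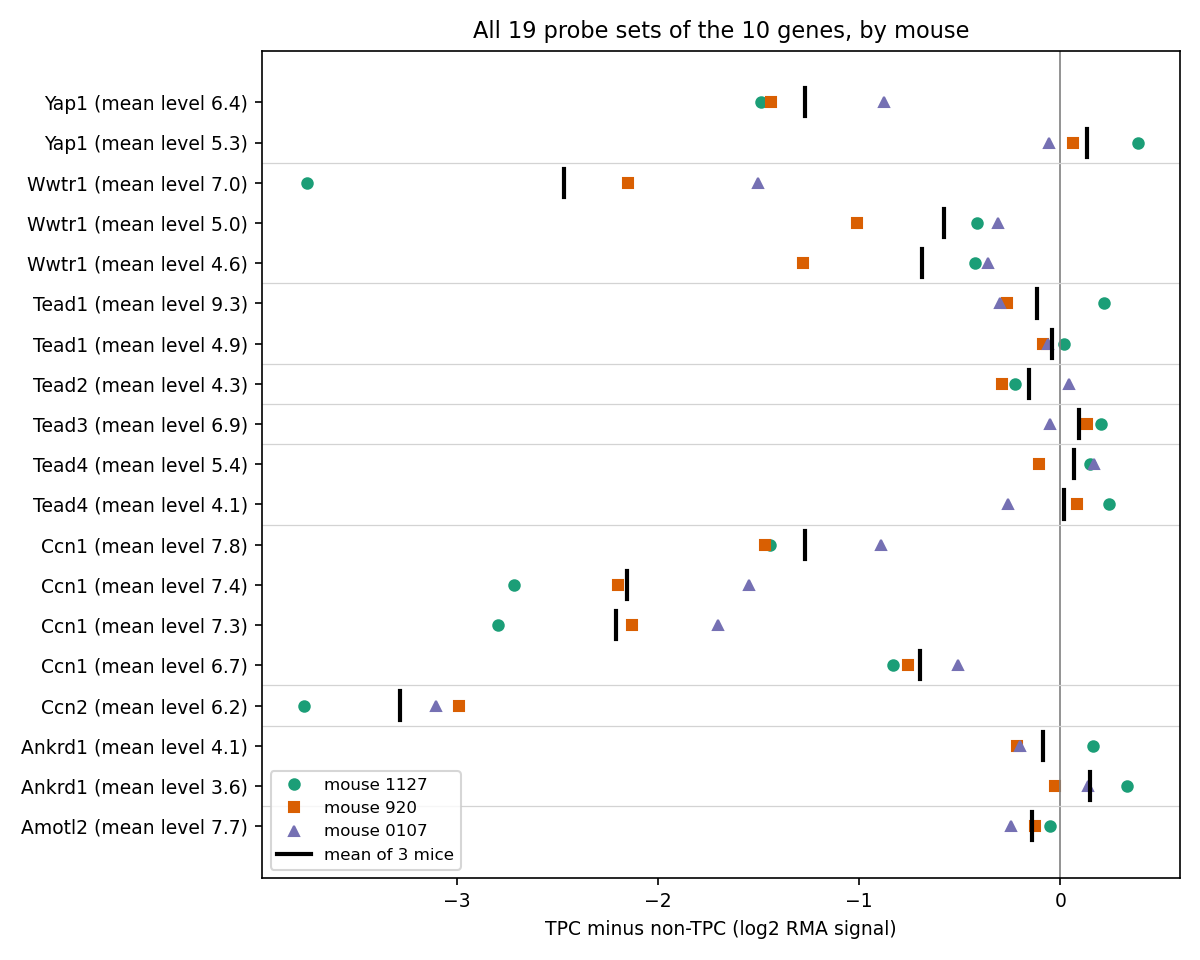
TPC minus non-TPC difference (log2 RMA signal) of each of the 19 probe sets, 1 row per probe set with its mean level, a symbol per mouse and a black bar for the mean of the 3 mice. All 4 Ccn1 and all 3 Wwtr1 probe sets lie left of 0 in every mouse, and the second Yap1 probe set does not.

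Across probe sets, 10 of the 19 were lower in TPCs of all 3 mice, beside 12.5% of 45037 probe sets. They were the 4 of Ccn1, the 3 of Wwtr1, the Ccn2 and Amotl2 probe sets and the brighter one of Yap1. In the fit over all probe sets only the Ccn2 probe set passed (adjusted p = 0.0311), and it still passed with a replicate block (0.0479).

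The kinase module that restrains YAP and TAZ had 0 of 6 measured genes past the test in either direction, and 0 at an unadjusted p under 0.05 in limma. Its median difference was 0.02, against 0.04 for all genes. Lats2, a kinase that phosphorylates YAP and is itself a YAP target, differed by 0.22, and the scaffolds Mob1a and Mob1b by -0.13 and 0.17. Stk4, which encodes the upstream kinase MST1, differed by 0.07. The adjusted p-values in the module ran from 0.88 to 0.986.

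Upstream and junction regulators had 0 of 17 genes past the test (median difference -0.09). At an unadjusted p under 0.05 in limma 4 were lower and 1 higher, beside 4.35% and 2.12% of all genes. The 4 with the smallest p were lower in TPCs of 3 of 3 mice. Frmd6, a FERM-domain protein that activates Hippo signalling, differed by -0.82 and Wwc2, a relative of the scaffold KIBRA, by -0.64 (both adjusted p = 0.391). Ajuba, a LIM protein that inhibits the LATS kinases, differed by -0.58 (adjusted p = 0.622) at a low level in all arrays. Amotl1, the paralogue of Amotl2, differed by -0.99 (adjusted p = 0.743), with 7.95, 7.45 and 6.39 in TPCs of mice 1127, 920 and 0107 against 7.98, 8.28 and 8.50 in non-TPCs. Its difference was -0.03 in mouse 1127 and -2.11 in mouse 0107, so mice varied widely.

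The VGLL cofactors, which compete with YAP for TEAD factors, had 0 of 4 genes past the test and 0 at an unadjusted p under 0.05 in limma (median difference 0.00). Vgll3 was at 7.11 in the non-TPCs of mouse 1127 and between 3.27 and 4.0 in the other arrays. Its mean difference of -1.46 (adjusted p = 0.877) thus came mainly from 1 array, with -3.76, -0.74 and 0.11 in mice 1127, 920 and 0107. Vgll4, the best-known repressor of TEAD factors among them, differed by -0.17, Vgll1 by 0.16 and Vgll2 by 0.16.

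Of the 17 other widely used YAP and TAZ target genes that were measured, 0 passed the test. At an unadjusted p under 0.05 in limma 5 were lower and 1 was higher, beside 4.35% and 2.12% of all genes. The median difference of the 17 was -0.23. Tgfb2, a TGF-beta ligand, was at 4.83, 4.85 and 5.43 in TPCs of mice 1127, 920 and 0107 and at 6.56, 6.95 and 7.42 in non-TPCs. It differed by -1.94 (adjusted p = 0.119) and passed with a replicate block (0.0462), the 1 gene of the list to do so. Its TPC levels in mice 1127 and 920 were below the first quartile of gene levels, 5.21. Ccdc80, a secreted matrix protein, was at 5.82, 5.58 and 5.27 in TPCs and 9.73, 9.10 and 7.52 in non-TPCs, a difference of -3.22 that did not pass (adjusted p = 0.2).

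Igfbp3, which binds insulin-like growth factors, was between 3.40 and 3.74 in TPCs and at 8.23, 4.19 and 8.63 in non-TPCs of mice 1127, 920 and 0107. It differed by -3.42 (adjusted p = 0.628), with a much smaller difference in mouse 920 than in the other mice. All its TPC levels were below the first quartile of gene levels, 5.21. Myof, a membrane-repair protein, differed by -0.43 (adjusted p = 0.634). Gadd45a, the 1 target higher at the unadjusted level, differed by 0.81 (limma adjusted p = 0.76). Its differences in mice 1127, 920 and 0107 were 1.04, 0.94 and 0.43. The targets divided, with 6 of the 17 lower and 2 higher in TPCs of all 3 mice, beside 13.8% and 19.7% of all genes.

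**Figure D3:**
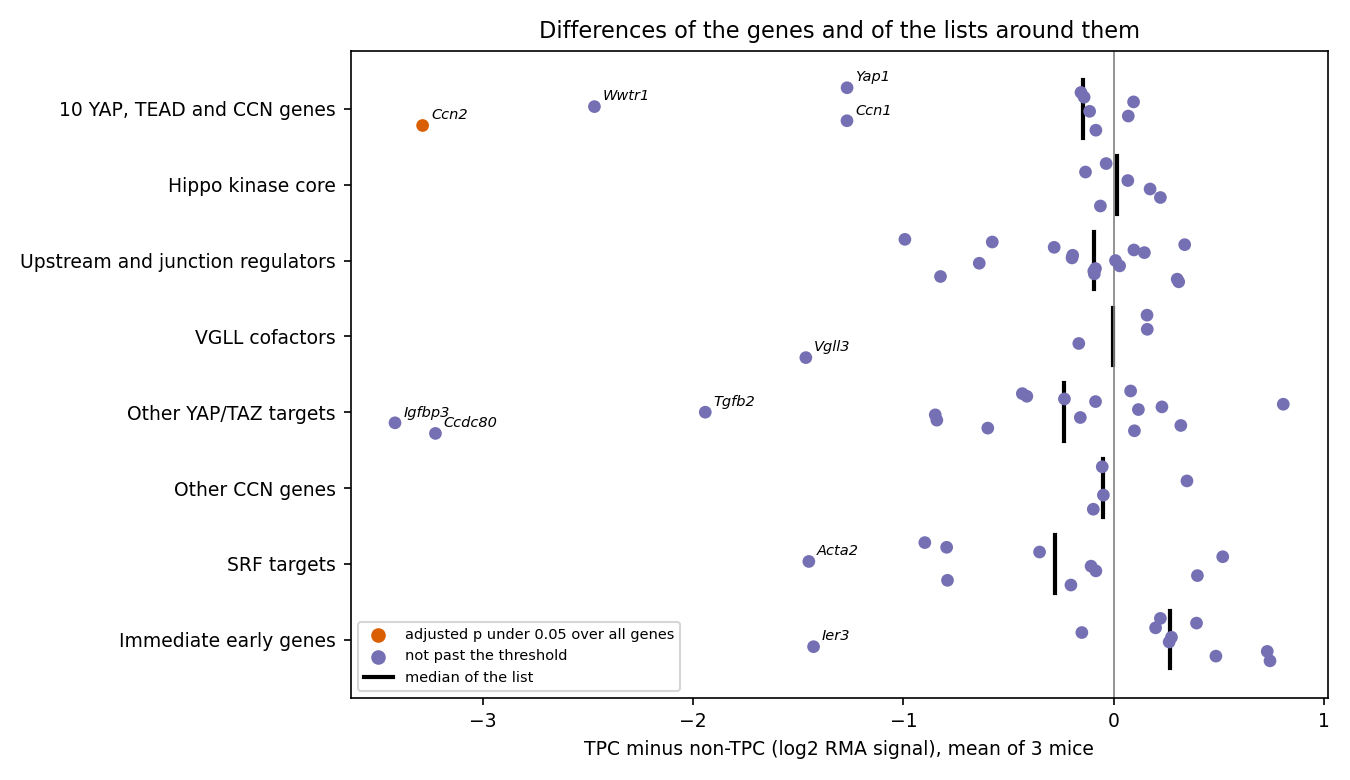
Mean TPC minus non-TPC difference (log2 RMA signal) of the 10 genes and of each gene in 7 surrounding lists, 1 point per gene, with the median of each list as a black bar and genes below -1 named. Ccn2 at -3.29 is the 1 point past the threshold, and the kinase core stays between -0.13 and 0.22.

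The other CCN genes did not follow Ccn1 and Ccn2, with 0 of 4 past the test and 0 at an unadjusted p under 0.05 in limma (median difference -0.05). Ccn3, known as Nov and as an antagonist of Ccn2 in several tissues, was bright in all arrays, at 13.42, 13.37 and 13.12 in TPCs and 13.31, 13.22 and 12.34 in non-TPCs of mice 1127, 920 and 0107. Each of the 3 TPC arrays was slightly above its partner (difference 0.35, adjusted p = 0.896). Ccn4, Ccn5 and Ccn6 were below the median gene level and differed by -0.10, -0.05 and -0.05.

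Targets of serum response factor, which shares several targets with YAP, had 0 of 10 genes past the test, and 2 lower and 0 higher at an unadjusted p under 0.05 in limma (median difference -0.28). The actin cross-linker Flna differed by -0.79 (adjusted p = 0.454), the myosin light chain Myl9 by -0.90 (0.604), Tagln by -0.79 (0.784) and the smooth muscle actin Acta2 by -1.45 (0.81). Acta2 was at 9.32 in the non-TPCs of mouse 1127 and between 6.01 and 6.86 in the other arrays, and Acta2, Tagln and Cnn1 also serve as smooth muscle markers. Srf itself differed by 0.40, with all 3 mice on the higher side.

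Immediate early genes respond to stimulation within minutes, as Ccn1 does. They had 0 of 10 genes past the test, with 1 lower and 0 higher at an unadjusted p under 0.05 in limma, and a median difference of 0.27. The stress-induced Ier3 differed by -1.43 (adjusted p = 0.557), while Atf3 (0.74), Ier2 (0.49) and Egr1 (0.39) leaned the other way and did not pass. Egr1 was between 13.18 and 13.58 in TPCs and between 12.35 and 13.57 in non-TPCs.

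Markers of other cell types were lower in TPCs along with the 4 genes, and their part in the differences was not tested. Among them, 4 passed the test over all genes: the mesothelial marker Gpm6a differed by -4.95 (limma adjusted p = 0.0338), the surfactant genes Sftpa1 and Sftpc by -3.41 (0.00374) and -2.20 (0.0238), and the neutrophil gene S100a9 by -3.25 (0.0338). The other lists had 0 markers past the test, while 1 to 5 of each were lower at an unadjusted limma p under 0.05, apart from 0 neuroendocrine ones, and 0 markers of any list were higher at that level. In bulk RNA of a sorted fraction, fewer cells of a type and less RNA per cell cannot be told apart. For each cell type the levels of its markers were summed on the linear scale and given as log2. Such a sum follows its brightest markers. In the TPCs of mouse 1127 Dcn alone was at 11.58 beside a fibroblast sum of 11.75, and Vwf at 10.85 beside an endothelial sum of 11.19. Dcn itself overlapped between fractions, with 11.51 in the non-TPCs of mouse 0107. The fractions did not overlap for the lists of fibroblasts (10.73 to 11.75 in TPCs, 11.88 to 14.40 in non-TPCs), smooth muscle and pericytes (8.94 to 9.08 and 9.17 to 11.26) and mesothelium (8.89 to 9.24 and 10.34 to 10.87). They did not overlap either for alveolar type 1 cells (9.88 to 10.20 and 11.28 to 12.21), alveolar type 2 cells (11.05 to 11.20 and 12.75 to 13.58) and neutrophils (8.39 to 9.13 and 10.88 to 11.45).

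Markers of endothelium (10.73 to 11.19 and 11.10 to 11.49), club cells (13.42 to 14.53 and 13.90 to 15.91), macrophages (10.87 to 12.15 and 11.99 to 13.40) and leukocytes in general (10.11 to 10.70 and 10.70 to 11.54) overlapped between fractions but were lower in the TPC array of every mouse. The number of markers lower in TPCs of all 3 mice was 6 of 10 for fibroblasts, 4 of 9 for smooth muscle and pericytes, 4 of 10 for endothelium and 6 of 7 for mesothelium. It was 5 of 8 for alveolar type 1 cells, 7 of 8 for alveolar type 2 cells, 6 of 6 for club cells, 5 of 6 for neutrophils, 8 of 9 for macrophages and 5 of 7 for leukocytes. Of all genes, 13.8% were lower in TPCs of all 3 mice. The brightest 2 markers per list differed by -1.61 (Dcn) and -2.58 (Col1a2) for fibroblasts, -0.52 (Hopx) and -1.73 (Ager) for alveolar type 1 cells and -2.20 (Sftpc) and -2.15 (Sftpd) for alveolar type 2 cells.

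For smooth muscle and pericytes the brightest pair differed by 0.07 (Des) and -1.45 (Acta2), for endothelium by -0.03 (Vwf) and -0.91 (Kdr), and for mesothelium by -1.12 (Krt19) and -0.14 (Upk1b). For club cells it was -0.46 (Scgb1a1) and -1.29 (Scgb3a2), for neutrophils -2.12 (Clec4d) and -2.96 (S100a8), for macrophages -1.22 (Lyz2) and -2.42 (Cd14), and for leukocytes 0.02 (Laptm5) and -1.38 (Tyrobp). The arrays have no zero, so no marker can be said to be absent. The tumour lineage itself was measured in both fractions: the 11 neuroendocrine markers summed to 14.20 to 14.49 in TPCs and 13.96 to 14.42 in non-TPCs. Of these 11, 3 were higher and 0 lower in TPCs of all 3 mice, beside 19.7% and 13.8% of all genes. The median difference of the 11 was 0.04. Their brightest pair, Resp18 and Scg2, differed by -0.26 and -0.14.

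**Figure D4:**
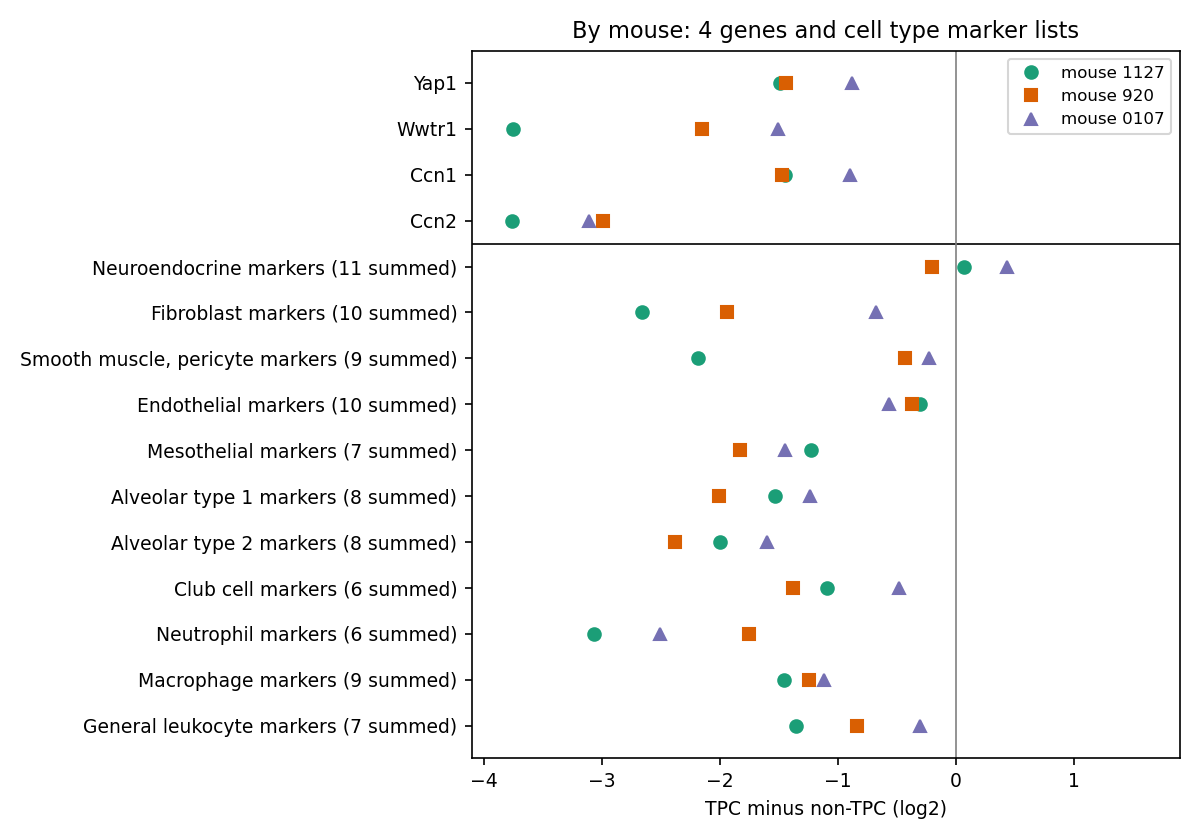
TPC minus non-TPC difference (log2) in each mouse for Yap1, Wwtr1, Ccn1 and Ccn2, and below the line for the summed level of each cell type's markers, with a symbol per mouse. Neuroendocrine markers lie around 0 (-0.20 to 0.43), and the other lists lie left of 0 in all 3 mice.

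The size order of the mice differed between these genes. Wwtr1 had its most negative difference in mouse 1127 and its least negative in mouse 0107. The summed markers of fibroblasts (-2.66, -1.93 and -0.67 in mice 1127, 920 and 0107), smooth muscle and pericytes (-2.18, -0.43 and -0.22), macrophages (-1.46, -1.24 and -1.12) and leukocytes (-1.35, -0.84 and -0.30) had that order too. Ccn2 was most negative in mouse 1127, then 0107, then 920, the order of the neutrophil markers (-3.06, -2.50 and -1.75 in mice 1127, 0107 and 920). Yap1 (-1.49, -1.44 and -0.88 in mice 1127, 920 and 0107) had the order of Wwtr1. Ccn1 (-1.44, -1.47 and -0.89) was most negative in mouse 920. For both genes, mice 1127 and 920 were close and mouse 0107 was least negative. Alveolar type 1 (-1.53, -2.01 and -1.23) and alveolar type 2 markers (-1.99, -2.38 and -1.60) had the order of Ccn1. So did club cell (-1.09, -1.38 and -0.48) and neuroendocrine markers (0.07, -0.20 and 0.43), while endothelial and mesothelial markers had other orders. These orders also changed with the probe set. In mice 1127, 920 and 0107 the other Ccn1 probe sets differed by -2.80, -2.13 and -1.70, by -2.72, -2.20 and -1.55, and by -0.83, -0.76 and -0.51. That is the order given above for Wwtr1. The dimmer Wwtr1 probe sets (-0.41, -1.01 and -0.31, and -0.42, -1.28 and -0.36) had the order given for Ccn1. With 3 mice such orders are descriptions.

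The genes most like each of the 4 in level were found by Pearson correlation over the 6 arrays, among genes above the median level with an SD of at least 0.5. All points share the same mice and fractions, so any gene that is low in TPCs scores high, and the values are descriptions over 6 arrays. Yap1 was most like Ccdc80 (r = 0.99), followed by the lung chemokine Cxcl15 (0.99), Rhbdf1 (0.99), Akr1b8 (0.98) and Ccn1 (0.98). Ccn1 was most like Ccdc80 (0.99) as well, then Tceal8 (0.99), Ldhb (0.99), the matrix protein gene Mgp (0.99) and Meg3 (0.98).

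Wwtr1 was most like genes expressed in myeloid cells, Cd53 (0.997), Plek (0.996) and Fpr2 (0.99), then Dram1 (0.99) and the monocyte receptor Cd14 (0.98). Ccn2 was most like Cd44 (0.99), whose protein was stained for the sort, then Gda (0.99), Smad3 (0.99), Tm4sf1 (0.99) and Tgm2 (0.98). Cd44 differed by -2.90 between the fractions. Among the 10 genes themselves, Yap1 correlated with Ccn1 at 0.98, with Wwtr1 at 0.94 and with Ccn2 at 0.93 over the 6 arrays. Its correlations with Tead1, Tead2, Tead3 and Tead4 were 0.33, 0.80, -0.40 and -0.47. With the mean of each fraction subtracted, Yap1 correlated with Ccn1 at 0.87, with Wwtr1 at 0.81 and with Ccn2 at 0.44. Its correlations with Tead1, Tead2, Tead3 and Tead4 were then 0.17, 0.94, -0.21 and -0.45, and Tead2 was dim in every array. Ccn1 and Ccn2 correlated at 0.93 over the 6 arrays and at 0.05 with the fraction means subtracted.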

How the data were processed

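Total RNA of sorted cells was labelled with the Affymetrix WT Plus kit, per the labels' protocols. The authors deposited log2 signals per probe set. RMA is the tool named in the submitters' processing notes, without a version. Values were taken as log2 from their range of 2.70 to 14.81 with array medians of 6.00 to 6.04. Of 45101 probe sets, 64 controls were left out, 34945 had 1 symbol, 932 several and 9160 none. The array annotation is that of a 3′ expression array, which differs from the whole-transcript kit the labels name. Symbols were updated to RefSeq (GRCm38.p6) for 18032 of 18193 genes.

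Each gene was its probe set of highest mean. limma 3.58.1 in R 4.3.3 (lmFit, eBayes, two-sided, Benjamini-Hochberg) compared 3 TPC with 3 non-TPC arrays. Both fractions of a mouse come from 1 animal, and deviations from the fraction means correlated at 0.30, 0.46 and 0.36 within mice 1127, 920 and 0107, so a replicate block for the mouse was fitted as well. The fit was tested on simulated data. Alternatives left out mice or arrays and changed the probe set rule, a filter on dim genes, the scaling and the variance model.

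All 10 genes are named, and of each pathway list up to 4 genes with the smallest p, of each marker list the brightest 2, and the 5 most correlated genes of Yap1, Wwtr1, Ccn1 and Ccn2. Srf, Cnn1, Gadd45a, Gpm6a, Sftpa1 and S100a9 were added after seeing their values. The members and lists were chosen with earlier results of these data known.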

Additional observations from a re-analysis of the deposited data

How the results depend on the processing

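The number of genes past the threshold was 11, and 39 with a random block for the mouse, 4 with the mean of a gene's probe sets, and 0 to 84 over the fits that left out a mouse or an array (0 without mouse 1127, 84 when the non-TPCs of mouse 0107 were dropped). With a replicate block it was 13 genes, and 9 instead of 11 probe sets. Of the 10 genes, 1 passed, and 0 to 3 did when a mouse or an array was left out. The 3, with the non-TPCs of mouse 0107 dropped, were Ccn2, Yap1 and Ccn1. Among genes above the median level, 4 of the 10 remained, Wwtr1, Tead1, Ccn1 and Amotl2. None of them passed, since that filter leaves Ccn2 out, along with Yap1. Their median difference was -0.70, against -0.15 for all 10, a change of gene set only, as the difference of each gene was unchanged. The median of the 10 ran from -0.24 to -0.11 over the fits that left out a mouse or an array. Ankrd1 differed by 0.032 with the mean of its probe sets, and by -0.23 to 0.0144 over the fits with arrays left out. Over these, Tead1 ran from -0.28 to 0.027, Tead3 from -0.0035 to 0.17 and Tead4 from -0.0042 to 0.16. Yap1, Wwtr1, Ccn1, Ccn2, Tead2 and Amotl2 kept their direction under all alternatives in which they could be fitted. The replicate block changed no call among the 10 genes. Centring each array on its median or repeating quantile normalisation moved no median by over 0.1. Levels below the first quartile limit Ankrd1, Tead2, the TPC values of Ccn2 and the TPC value of Wwtr1 in mouse 1127.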
